A study of Mus musculus with 34 samples.

Results

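Mast cells (MCs) of mouse ear skin were ranked by the expression of 8 immediate early genes, and the cells with the highest score were compared with those with the lowest. The cells were chosen by a score, the sum of Fos, Fosb, Jun, Junb, Egr1, Ier2, Dusp1 and Zfp36 transcripts per 10000 transcripts of the cell, outside predicted genes named Gm plus a digit. In each of 30 libraries, the 1 in 4 cells with the highest score were called immediate-early-high and the 1 in 4 with the lowest immediate-early-low. This gave 539 high and 539 low cells of 2196 MCs with more than 1000 transcripts outside Gm genes, and 2503 cells of the series in all passed that filter. The WT mice were Mcpt5-cre+/− Tln1+/+ R26LSL:YFP littermates (n = 3), and the Tln1ΔMC mice, labelled KO, had lost Tln1 in cells with Mcpt5-cre activity and also carried R26LSL:YFP (n = 3). All were untreated males aged 7 weeks, labelled C57BL/6J, and the study's methods give an albino C57BL/6J background with the Tyr c-2J allele for this cross. YFP marks cells in which Mcpt5-cre has been active, and the sorted CD45+Lin−YFP+ cells had been released from the ear by digestion for 75 min at 37 °C, which all 6 mice shared. Expression present in the skin and expression raised while cells were prepared therefore cannot be told apart.

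Immediate early genes are switched on within minutes of a stimulus, without new protein synthesis, when kinases such as ERK and p38 act on factors already bound to their promoters. Fos, Fosb, Jun and Junb encode subunits of the AP-1 transcription factor and Egr1 a zinc finger transcription factor. Dusp1, a phosphatase that inactivates MAP kinases, and Zfp36, a protein that directs AU-rich mRNAs to decay, end the response. In MCs the same program follows ligation of the IgE receptor, Kit or other surface receptors and precedes cytokine transcription.

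From each mouse 47 to 228 high and as many low cells were summed, and these sums held at least 146308 transcripts outside Gm genes. Of the 9 MC markers, all were measured in both classes, and Cpa3, which encodes the MC carboxypeptidase A3, was found in every high cell and in 98.4% to 100% of the low cells of a mouse. The median transcripts per cell outside Gm genes were higher in high cells in 3 mice and lower in 3 mice, from 1.59-fold higher in WT mouse 1 to 0.853-fold in Tln1ΔMC mouse 3, and the mean log2 ratio of 0.21 was within the spread between mice (exact two-sided sign-flip permutation p = 0.3125, n = 6 mice). Gm genes, left out of the sums, held 15.7% to 49.5% of all transcripts in high cells and 11.3% to 60.7% in low cells. Their share was larger in the high cells of 2 mice. Mitochondrial transcripts were at 878 to 1412 per 10000 in high and 1077 to 1833 in low cells. They too were higher in the high cells of 2 mice. Transcripts of 43 marker genes of other cell types made up 5.03 to 40.3 per 10000 in high and 5.23 to 476 in low cells, higher in the low cells of 5 of 6 mice, and fibroblast genes led in WT mouse 2 and keratinocyte genes in Tln1ΔMC mouse 3. Among these markers Kdr, Emcn and Trbc1 were at 0 in the high cells and Cdh5 in the low cells. Of the 4 libraries of WT mouse 2, 1 had the largest share of macrophage, antigen-presenting and keratinocyte marker transcripts, and without it 225 genes were higher and 163 lower in the comparison below. Tln1, the targeted gene, was at 453 and 540 CPM (high and low cells, transcripts per 1000000) in WT mouse 1, 640 and 689 in WT mouse 2 and 897 and 745 in WT mouse 3. It was at 640 and 660 in Tln1ΔMC mouse 1, 544 and 448 in Tln1ΔMC mouse 2 and 451 and 395 in Tln1ΔMC mouse 3. These ranges overlapped, but mCEL-Seq2 reads the 3′ end of a transcript, so a deletion elsewhere in the gene need not lower the count, and the level of Tln1 checks the genotype labels in neither direction.

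The 8 score genes chose the cells, so their levels in the high and low cells are a description without a test. The score over all cells of a mouse does not depend on the split, which was made within libraries. Over all cells of a mouse the score stood at 136, 95.2 and 135 for the WT animals 1, 2 and 3. For the Tln1ΔMC animals it stood at 125, 132 and 147. The Tln1ΔMC mean of 135 ± 11.3 lay 12.2 above the WT mean of 122 ± 23.5 (SD, n = 3 each), a difference within the spread between mice. With 3 mice against 3 an exact two-sided permutation test cannot go below 0.1, so it could not pass 0.05 (p = 0.7), and without WT mouse 2 the difference was −1.35. In the high cells the score lay between 238 and 382 and in the low cells between 21.1 and 38.2. In the 30 libraries the lowest score inside the high class was 95.3 to 302, with the next cell outside at 92.2 to 290, and the highest score inside the low class was 22.5 to 67.9, with the next cell outside at 23.998 to 70.01. Fos was at 36.4, 63.2 and 84.6 transcripts per 10000 in high cells (lowest, median and highest mouse) and at 0.742, 1.25 and 1.98 in low cells. Zfp36 and Dusp1 were at medians of 29.7 and 25.8 in high against 2.23 and 1.36 in low cells. Fosb differed least, with 24.6, 33.6 and 36.4 in high and 6.95, 9.11 and 15.1 in low cells. Thus Fosb made up 26.3% to 39.5% of the score in low cells but 7.56% to 13.6% in high cells, whereas Fos made up 1.98% to 6.19% in low and 15.1% to 22.7% in high cells.

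**Figure D1:**
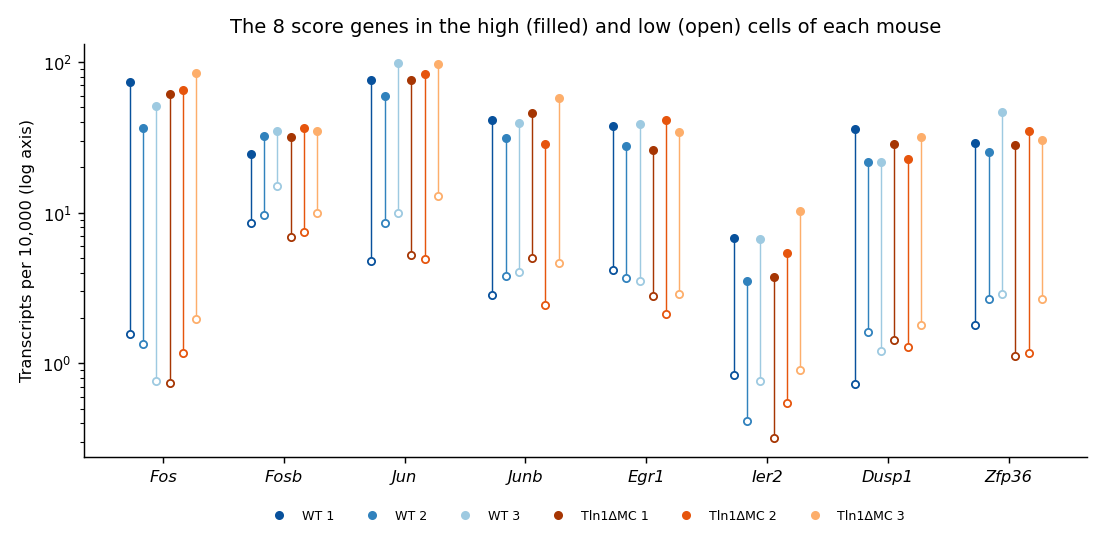
Transcripts per 10000 (log axis) of each score gene in the high cells (filled) and low cells (open) of the 6 mice, each mouse joined by a line. Every gene is higher in the high cells of every mouse, as the choice of cells favours, with Fosb showing the shortest lines.

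Because these genes are known for promoters that respond to kinases, the 250 bases before the start site are shown for the score genes Fos, Junb, Dusp1 and Zfp36 and for Nr4a1 and Klf2, which are described next, from the RefSeq annotation of GRCm38.p6. Capitals mark the CRE core TGACG, which CREB and ATF factors can bind, the CArG box of SRF, and the TATA box, searched as TATAAA or TATATA, on both strands, so that CGTCA is a core on the other strand. The Fos window was chr12:85473640-85473889 (plus strand), that of Junb chr8:84978749-84978998 (minus strand), that of Dusp1 chr17:26508473-26508722 (minus strand), that of Zfp36 chr7:28379229-28379478 (minus strand), that of Nr4a1 chr15:101266596-101266845 (plus strand) and that of Klf2 chr8:72318812-72319061 (plus strand).
Fos: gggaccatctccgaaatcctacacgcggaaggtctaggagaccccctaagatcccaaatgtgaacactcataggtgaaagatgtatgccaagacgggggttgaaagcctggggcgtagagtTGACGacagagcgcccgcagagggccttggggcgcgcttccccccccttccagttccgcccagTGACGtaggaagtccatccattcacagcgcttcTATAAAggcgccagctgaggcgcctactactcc
Junb: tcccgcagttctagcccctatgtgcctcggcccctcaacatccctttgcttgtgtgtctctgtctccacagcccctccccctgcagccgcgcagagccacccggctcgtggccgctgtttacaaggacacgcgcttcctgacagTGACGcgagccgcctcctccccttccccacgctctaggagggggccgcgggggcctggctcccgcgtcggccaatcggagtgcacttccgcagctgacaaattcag
Dusp1: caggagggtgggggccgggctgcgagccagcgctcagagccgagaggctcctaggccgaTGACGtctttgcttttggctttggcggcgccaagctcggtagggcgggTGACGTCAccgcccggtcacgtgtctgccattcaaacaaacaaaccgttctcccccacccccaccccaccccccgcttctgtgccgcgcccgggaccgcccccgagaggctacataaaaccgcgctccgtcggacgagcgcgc
Zfp36: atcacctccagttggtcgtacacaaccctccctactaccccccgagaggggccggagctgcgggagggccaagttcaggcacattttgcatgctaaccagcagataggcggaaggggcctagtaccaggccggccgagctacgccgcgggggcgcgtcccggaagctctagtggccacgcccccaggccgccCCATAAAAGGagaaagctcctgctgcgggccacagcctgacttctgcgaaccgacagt
Nr4a1: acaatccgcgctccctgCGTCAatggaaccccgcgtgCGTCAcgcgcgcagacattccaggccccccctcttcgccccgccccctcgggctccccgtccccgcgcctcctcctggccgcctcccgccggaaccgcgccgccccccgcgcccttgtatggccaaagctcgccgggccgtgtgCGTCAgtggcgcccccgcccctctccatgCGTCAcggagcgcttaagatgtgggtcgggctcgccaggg
Klf2: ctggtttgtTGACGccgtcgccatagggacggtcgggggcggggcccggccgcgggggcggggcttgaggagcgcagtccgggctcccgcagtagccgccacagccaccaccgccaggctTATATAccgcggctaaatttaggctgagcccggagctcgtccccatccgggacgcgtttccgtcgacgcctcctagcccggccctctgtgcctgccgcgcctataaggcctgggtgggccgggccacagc
Fos had CRE cores at 129 to 125 and 66 to 62 bases before the start and a TATA box at 33 to 28. Junb had a core at 106 to 102 and Klf2 one at 241 to 237 and a TATA box at 130 to 125. Dusp1 held the full CRE TGACGTCA, with cores at 143 to 139 and 140 to 136, beside a core at 191 to 187, and Zfp36 a CArG box at 58 to 49. Nr4a1 had 4 CRE cores, at 233 to 229, 213 to 209, 69 to 65 and 40 to 36. All windows shown hold a match. The same search of Fosb found a core at 60 to 56, and the windows of Jun, Egr2, Flrt3 and Gzmb held no match. Egr1 and Ier2 had no sequence. The first RefSeq start listed for a gene was used. For Nr4a1, Dusp1 and Zfp36 the window lies wholly inside the span of the gene in GENCODE M21, so the start is internal to that span. Such letters are common: within 250 bases before and 50 after the start, the core was in 4 of 6 score genes with a sequence. It was in 35.7% of 3017 genes tested below and in 21.02% of all 27025 promoters. The full CRE was in 3.22% of these tested genes and 1.88% of all promoters, and the CArG box in 1.56% and 1.57%. A match describes the letters and is not evidence of binding.

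Leaving out the score genes, 3907 genes that reached 10 transcripts in 6 or more of the 12 sums were compared between high and low cells, paired within the mouse. At an adjusted p under 0.05, 234 genes were higher (5.99% of those tested) and 174 lower (4.45%) in high cells (limma with Benjamini-Hochberg adjustment), and the median log2 fold change over all genes was −0.03. The cells were split by genes measured in the same cells, so a call says that a gene moved with the score in these mice and not that a treatment changed it. Of the called genes, 191 higher and 138 lower ones moved the same way in all 6 mice at a mean of at least 20 transcripts per 1000000, and the 12 largest changes of each direction are described below by role. Levels are normalized transcripts per 1000000 (CPM), and the fold change is on the scale of log2(CPM + 1), which understates the change of genes of low level.

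**Figure D2:**
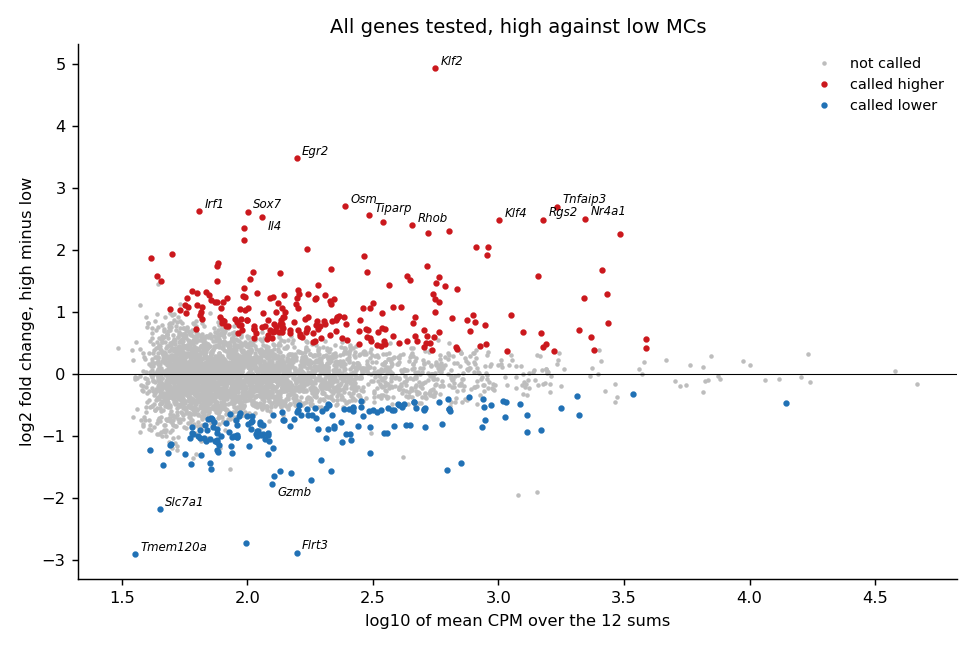
log2 fold change of high over low cells against log10 of the mean level for the 3907 genes tested. The 12 higher and the 4 lower genes with the largest changes are labelled, and the unlabelled blue point near −2.73 is Cxcl2, which went the other way in 1 mouse.

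Of 19 tested early transcription factors outside the score 12 were higher in the high cells, 1 was lower and 6 were not called. Here and below, list members were chosen with earlier results of these data known. Counts and medians of the lists are therefore descriptions, to be read beside 5.99% higher and 4.45% lower among all genes tested. Klf2, a Krüppel-like factor known for restraining inflammatory genes (chromosome 8 of GRCm38, 72319033 to 72321656), had 626, 1132 and 1392 CPM in high cells (lowest, median and highest mouse) and 6.06, 33.5 and 189.9 in low cells. The classes did not overlap, the log2 fold change was 4.92 (standard error 0.40, adjusted p = 9.35e-08 from limma), and Klf2 was higher in 30 of 30 libraries, although its low sums held as few as 1 transcript. Its relatives Klf4 and Klf6 rose by 2.48 and 2.25 on the log2 scale, also in 30 of 30 libraries, and Klf10 was at −0.08 (adjusted p = 0.854 from limma). Libraries of the same mouse are not replicates, so counts of libraries here and below are descriptions and not further support.

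Nr4a1, an orphan nuclear receptor induced by antigen receptors (chromosome 15, 101254269 to 101274795), had 2734, 3870.2 and 4172 CPM in high and 331, 742 and 969 in low cells, without overlap (log2 fold change 2.50, SE 0.16, limma adjusted p = 6.75e-09). Its paralogs were not called, Nr4a2 at 0.54 (adjusted p = 0.384) and Nr4a3 at −0.17 (adjusted p = 0.466 from limma). Egr2, a relative of Egr1 (chromosome 10, 67535475 to 67542188), had 79.5, 189 and 657 against 6.06, 24.7 and 44.8 CPM, a log2 fold change of 3.47 (standard error 0.44) from 403 transcripts in high and 70 in low cells. Irf1, an interferon-responsive factor, rose by 2.62, Hes1, a repressor downstream of Notch, by 2.27, and Sox7, an SRY-box factor on none of the lists, by 2.61. Of the AP-1 relatives outside the score, Fosl2 rose by 1.29 and Jund by 0.42.

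Over the 19 tested early transcription factors the median log2 fold change was 1.15 against −0.03 over all genes. Id2, an inhibitor of helix-loop-helix factors, was the lower one at −0.54. Nr4a2, Nr4a3, Klf10, Bhlhe40, Nfil3 and Srf were not called. The calls of Atf3 (1.63), Cebpb (1.03), Jund and Id2 were each lost when 1 mouse was left out: Jund without WT mouse 2 (adjusted p = 0.075), Id2 without Tln1ΔMC mouse 1 or 2 (0.0616 and 0.0739), Atf3 without WT mouse 1 or Tln1ΔMC mouse 1 or 2 (0.181, 0.187 and 0.108) and Cebpb without WT mouse 1 or 3 or Tln1ΔMC mouse 2 (0.149, 0.0519 and 0.13; all from limma).

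**Figure D3:**
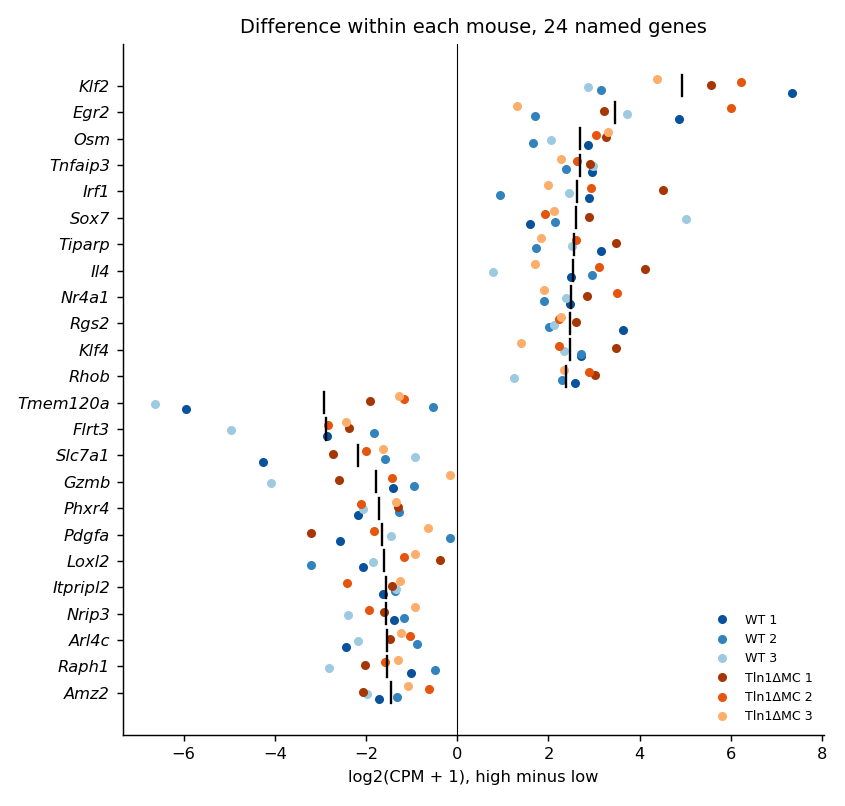
Difference between high and low cells of each mouse in log2(CPM + 1) for the 12 genes with the largest increase and the 12 with the largest decrease. Black bars are the fitted log2 fold changes, and by the rule that chose the genes all 6 mice lie on one side of 0.

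Genes that regulate signalling formed the next group. Tnfaip3 encodes A20, an enzyme that edits ubiquitin and shuts off NF-kB signalling (chromosome 10, 19000910 to 19015657). It had 1846, 2876 and 3928 CPM in high and 352, 465 and 518 in low cells, which was 2.69 on the log2 scale with a standard error of 0.12 (limma adjusted p = 4.76e-11), with mice between 2.27 and 2.97. Nfkbid, Nfkbiz and Nfkbia, which encode IkB family regulators of NF-kB, rose by 2.30, 1.57 and 1.22, and Birc3, an inhibitor of apoptosis, by 0.91. In contrast, the subunit gene Relb fell by 0.97 on the log2 scale, and Nfkb1, Nfkb2, Rela and Rel were not called, at −0.48, −0.28, −0.17 and 0.17. Of 15 tested genes of the NF-kB list 6 were higher and 1 lower, and the list's median was −0.10. The calls of Relb and of Socs1 (0.84) were lost without single mice: Relb without WT mouse 3 or Tln1ΔMC mouse 1, 2 or 3 (adjusted p = 0.0846, 0.0996, 0.0924 and 0.0963) and Socs1 without WT mouse 1 or 2 or Tln1ΔMC mouse 1 or 2 (0.0542, 0.0704, 0.0645 and 0.0912; limma).

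Of 19 tested mRNA decay and antiproliferative feedback genes, 13 were higher and 1 lower, with a median of 1.27. Rgs2, which speeds the switching off of G proteins (chromosome 1, 143999338 to 144004161), had 2053, 2595 and 3013 CPM in high and 224, 487 and 639.6 in low cells, which was 2.48 on the log2 scale with a standard error of 0.16 (limma adjusted p = 6.75e-09). Rgs1, of the same family, rose by 2.04. Tiparp, an ADP-ribosyltransferase that is a target of the aryl hydrocarbon receptor, rose by 2.55 and Rhob, a small GTPase, by 2.39, each in 30 of 30 libraries. Ppp1r15a, which restores translation after stress, rose by 2.05 and the clock gene Per1 by 2.15. The Zfp36 relatives Zfp36l1 and Zfp36l2 rose less, by 1.08 and 0.98. Pim1, a kinase downstream of cytokine receptors, fell by 0.49 on the log2 scale, a call lost without WT mouse 1 or Tln1ΔMC mouse 1 or 2 (adjusted p = 0.0708, 0.0669 and 0.0756 from limma), as was that of Tob1 (1.34; adjusted p = 0.1, 0.124 and 0.0957). Among MAP kinase phosphatases and Sprouty inhibitors 4 of 15 listed genes were tested and 1 was called, Dusp6, the phosphatase of ERK, at 1.23. Of 16 tested MAP kinase cascade genes none was higher and 2 were lower, beside 5.99% higher and 4.45% lower among all genes tested. These 2 were Map2k3, which activates p38, at −0.86 in 30 of 30 libraries, and Nras at −0.66. The Nras call was lost without WT mouse 1 or Tln1ΔMC mouse 1 or 2 (adjusted p = 0.0609, 0.0512 and 0.0809 from limma).

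Of 24 listed cytokine and chemokine genes 12 were too low to test, 8 were higher in the high cells, 1 was lower and 3 were not called, with a median of 1.24 over the 12 tested. Osm, which encodes oncostatin M (chromosome 11, 4236420 to 4241026), had 219.8, 459 and 575 CPM in high and 49.4, 62.8 and 84.4 in low cells, which was 2.70 on the log2 scale with a standard error of 0.21 (limma adjusted p = 5.02e-08). Il4, a type 2 cytokine (chromosome 11, 53602982 to 53618669), had 121, 163 and 345 against 11.8, 37.5 and 70.3 (log2 fold change 2.53, standard error 0.32). Il13, its neighbour and also a type 2 cytokine (chromosome 11, 53631324 to 53634702), had 397, 646 and 1822 against 147, 195 and 323 (log2 fold change 1.73, standard error 0.19). Neither overlapped between the classes. Irf1 starts at 53770014 on the same chromosome, and the 3 genes together span 175 kb. The monocyte chemokine genes Ccl2 and Ccl7, which lie within 11.95 kb on the same chromosome, rose by 1.92 and 1.68, each in 30 of 30 libraries. Vegfa, an angiogenic factor, rose by 1.53, Csf1, the macrophage growth factor, by 0.94 and Tnf by 0.86. Il6, Il1b and Tgfb1 were not called, at 0.19, −0.71 and −0.46. Cxcl2, a neutrophil chemokine, was at −2.73 but higher in the high cells of 1 mouse, from 119 and 243 transcripts in all, and its call was lost without Tln1ΔMC mouse 2 (adjusted p = 0.0805 from limma).

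For some called genes the difference is also given as the share of cells with at least 1 UMI. Each cell was thinned to 1000 UMIs (1 low cell was shallower and left out). These shares come from the same cells and transcripts as the calls and are not separate support. Il13 was found in 28.8% of 539 high cells (exact 95% binomial interval 25.0% to 32.8%) and 14.1% of 538 low cells (11.3% to 17.4%), and Il4 in 13.4% (10.6% to 16.5%) and 4.65% (3.03% to 6.78%). By mouse, Il13 was found in 20.97% to 45.6% of high and 10.9% to 19.2% of low cells, higher in 6 of 6 mice, and Il4 was higher in 5 of 6 mice. Klf2 was found in 41.9% (37.7% to 46.2%) of high and 4.28% (2.73% to 6.35%) of low cells. By mouse this was 28.1% to 46.8% of high and 0% to 10.6% of low cells, higher in 6 of 6 mice. Among 307 Myh11-GFP cells of ear skin, which should lack the cytokines, Il13 and Il4 were found in 0, which by the limit of 3 counts allows a share of up to 0.977%, and Klf2 was found in 16.0%. These cells were in libraries of their own, so their shares do not measure RNA shared between the wells of an MC library. Before thinning, Il13 was found in 52.5% and 34.9% and Il4 in 39.1% and 15.6% of high and low cells, at medians of 3962 and 3829 UMIs per cell against 4081 in the Myh11-GFP cells. The intervals pool the cells of all mice, with 228 of the 539 high cells from Tln1ΔMC mouse 3. They cover counting error only and not the spread between mice.

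**Figure D4:**
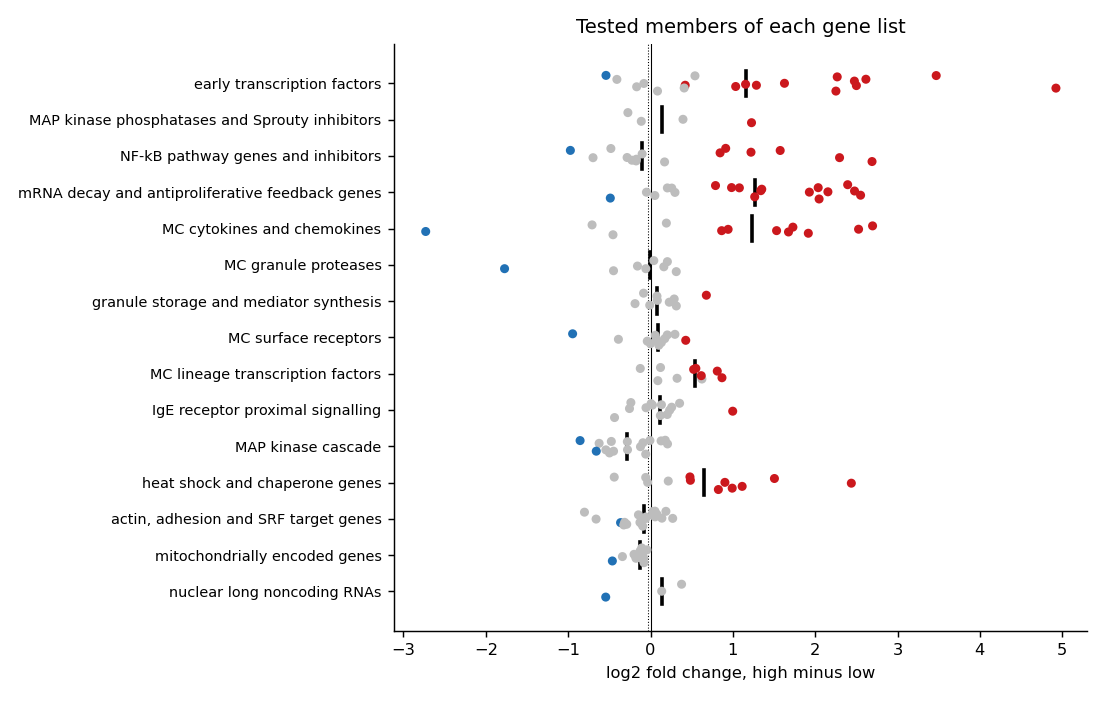
log2 fold change of the tested members of 15 gene lists, red where called higher, blue where called lower and grey where not called. Black bars are list medians and the dotted line is the median of all genes, −0.03. At least 5 members were called higher in the lists of early transcription factors, NF-kB genes, feedback genes, cytokines, lineage factors and heat shock genes. List members were chosen with earlier results of these data known.

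In 4 lists of MC granule, mediator, receptor and IgE signalling genes, 5 of 42 tested members were called in either direction (11.9%), near the 10.4% of all genes. Of 8 tested granule protease genes none was higher and 1, Gzmb, was lower, and the list's median was −0.01. Cma1, the chymase MCPT5, had 13014 to 17768 CPM in high and 14824 to 19041 in low cells (log2 fold change −0.06, standard error 0.11), and Mcpt4 was at 0.04. Cpa3 was at 0.31 (adjusted p = 0.0514) and the tryptase gene Tpsab1 at −0.45 (adjusted p = 0.0567 from limma). Both lay near the threshold: Cpa3 was called higher in 6 of 27 alternatives (adjusted p from 0.00669 to 0.353) and Tpsab1 lower in 9 of 27 (0.00555 to 0.417 with limma). Gzmb, granzyme B, had 14.3, 37.5 and 113 CPM in high and 28.5, 187 and 430.3 in low cells, which was −1.77 on the log2 scale with a standard error of 0.36 (limma adjusted p = 0.00266), with overlapping classes. Since reads with several places in the genome were dropped before deposit, the levels of proteases with close paralogs are uncertain. Of 9 tested genes of granule storage and mediator synthesis 1 was higher, Ndst2, a heparin-modifying enzyme, at 0.68. Among 12 tested receptors Kit, the stem cell factor receptor, rose by 0.43 and Csf2rb, the common beta chain of the IL-3 and GM-CSF receptors, fell by 0.95 on the log2 scale, from 1061 to 2388 CPM in low to 630.3 to 1372 in high cells. The Kit call was lost without WT mouse 1 (adjusted p = 0.0643) or Tln1ΔMC mouse 2 (0.055), and also without 159 cells that carried other-type markers or no Cpa3 (log2 fold change 0.27, adjusted p = 0.118) or with only cells of over 2000 transcripts (0.054), in 6 of 27 alternatives in all (0.00322 to 0.162; limma). Of 13 tested genes of proximal IgE receptor signalling 1 was higher, the adaptor Gab2 at 1.00, and that call was lost without WT mouse 2 (adjusted p = 0.0621 from limma).

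Among lineage transcription factors 5 of 10 tested members were higher and none lower, with a median of 0.54. Gata2, a regulator of MC differentiation, had 2636, 3496 and 4128 CPM in high and 1551, 1820.1 and 3239 in low cells (log2 fold change 0.81, SE 0.11, limma adjusted p = 4.96e-05). Mitf, which acts downstream of Kit, had 237 to 339 in high and 135 to 177 in low cells, without overlap (log2 fold change 0.87, standard error 0.15), and Zeb2 rose by 0.62. The calls of Tal1 (0.52) and Meis2 (0.55) were lost without single mice: Tal1 without WT mouse 1 or Tln1ΔMC mouse 2 or 3 (adjusted p = 0.146, 0.115 and 0.123) and Meis2 without WT mouse 1, 2 or 3 or Tln1ΔMC mouse 2 or 3 (0.0989, 0.184, 0.0664, 0.101 and 0.131; limma). When cells were thinned to 1000 UMIs, 2 of 6 lineage factors tested were called higher, with a median of 0.46.

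Of 12 tested heat shock and chaperone genes 8 were higher and none lower, with a median of 0.65. Dnajb1, a co-chaperone, had 443, 661 and 928 CPM in high and 124, 240.4 and 359 in low cells, without overlap (log2 fold change 1.50, SE 0.19, limma adjusted p = 2.26e-05). Hspa1a, the inducible HSP70, was at 2.44 with a standard error of 0.53 and mice between −0.11 and 5.44. Dnaja1, Hspa8, Hsph1 and Dnajb4 were at 0.90, 0.82, 1.11 and 0.99, and Hspa5 and Hsp90aa1 at 0.48 each. The calls of Hspa5 (without WT mouse 1 or 3 or Tln1ΔMC mouse 1 or 2; adjusted p = 0.0508, 0.0771, 0.0506 and 0.113), Hsp90aa1 (without Tln1ΔMC mouse 1 or 2; 0.0574 and 0.0531), Hsph1 (without WT mouse 1 or Tln1ΔMC mouse 1, 2 or 3; 0.0847, 0.0805, 0.0735 and 0.0676) and Dnajb4 (without Tln1ΔMC mouse 1 or 2; 0.0645 and 0.0986; all limma) were lost in this way. Whether these transcripts rose during the digestion shared by all mice was not tested.

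The 12 genes with the largest decrease are described next. Flrt3, a membrane protein of cell adhesion and guidance (chromosome 2, 140650914 to 140671469), had 8.08, 43.3 and 65.8 CPM in high and 171, 280.3 and 348 in low cells, without overlap (log2 fold change −2.88, SE 0.29, limma adjusted p = 1.38e-06; lower in 29 of 30 libraries). Itpripl2 had 89.3, 98.7 and 138 against 246, 289.8 and 480.5 (log2 fold change −1.57, standard error 0.17). Arl4c, a small GTPase of the ARF family, had 178, 311 and 507 against 569, 953 and 1238 (log2 fold change −1.54, standard error 0.18). Neither gene overlapped between the classes, and each was lower in 29 of 30 libraries. Phxr4, Pdgfa, a ligand of PDGF receptors, and Nrip3 fell by 1.71, 1.65 and 1.57 on the log2 scale, also without overlap, and Amz2 by 1.46. Loxl2, a lysyl oxidase of the matrix, Raph1, which regulates actin at the leading edge, and Slc7a1, a transporter of cationic amino acids, fell by 1.60, 1.54 and 2.19 with overlapping classes. Tmem120a was at −2.91 with a standard error of 0.86, from 32 transcripts in high and 130 in low cells, and its call was lost without each of WT mice 1, 2 and 3 and Tln1ΔMC mice 1 and 2 (adjusted p = 0.102, 0.0934, 0.0893, 0.09 and 0.0756 from limma).

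By summed transcripts, markers of fibroblasts, keratinocytes and antigen-presenting cells lay mostly in the low cells. Fibroblast markers there reached 365 per 10000 in WT mouse 2 and keratinocyte markers 69.5 in Tln1ΔMC mouse 3. Not all mice shared this: high cells held more fibroblast markers in 1 mouse and more keratinocyte or antigen-presenting markers in 2 mice each. In WT mice 1 and 3 and Tln1ΔMC mouse 1, fibroblast markers were highest in the class next above the low cells (85.6, 223 and 48.6). The genes that fell were therefore compared again without the 159 cells that had over 0.5% of their transcripts from other-type markers or no Cpa3. Without these cells 215 genes were higher and 175 lower of 3466 tested. Of 168 genes called lower in all cells and still tested, 132 kept the call and 2, Sparc and Nfix, changed sign. Flrt3 was then at −3.50, Gzmb at −1.97, Itpripl2 at −1.65 and Arl4c at −1.67, and their calls remained. Nfix, named after its value was seen, turned from −0.66 to 0.05 (adjusted p = 0.914 from limma). Sparc, a matrix gene of fibroblasts, turned from −1.44 to 0.18 (adjusted p = 0.731 from limma), and Col1a2 moved from −1.96 (adjusted p = 0.0514) to −0.27. The Sparc call was also lost without WT mouse 1 or 2 or Tln1ΔMC mouse 1 or 2 (adjusted p = 0.183, 0.187, 0.114 and 0.0633; limma). Transcripts of the T or innate lymphoid markers together were lower in the high cells of all 6 mice, in WT mouse 3 at 1.16 against 1.20 per 10000. Most were from Il7r, with 139 transcripts in high and 324 in low cells. Trdc had 10 and 34 and Nkg7 had 24 and 26, so the sum is mainly that of Il7r. Il7r was called lower at −0.99 (adjusted p = 0.00639 from limma), a call kept in 22 of 24 alternatives. Among ribosomal protein genes 6 of 67 tested were lower in all cells and none higher, with a median of −0.27. Rps19 was at −0.98, the calls of the other 5 were each lost when 1 of several mice was left out, and without the 159 cells none was lower and 1 higher with a median of 0.03. Of 20 tested actin, adhesion and SRF target genes 1 was lower, Actg1 at −0.36, and that call was lost without these cells (adjusted p = 0.0871) and without WT mouse 1 or 2 or Tln1ΔMC mouse 1, 2 or 3 (0.0572, 0.12, 0.116, 0.0925 and 0.123; limma). Tln1 was not called between the classes, at 0.06 (adjusted p = 0.823 from limma). Of 15 mitochondrially encoded genes 1 was lower, mt-Rnr1 at −0.46, and of 3 tested nuclear long noncoding RNAs 1, Kcnq1ot1 at −0.54. Among all genes tested 4.45% were lower, the share to set beside these counts and those of the ribosomal and actin genes. Leaving out WT mouse 1 or Tln1ΔMC mouse 2 or 3 ended the mt-Rnr1 call (adjusted p = 0.0875, 0.0788 and 0.0775), and leaving out WT mouse 1, 2 or 3 or Tln1ΔMC mouse 2 that of Kcnq1ot1 (0.202, 0.135, 0.142 and 0.164; limma).

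The levels were also followed through all 4 classes of the cells, each 1 in 4 cells of a library, of which the middle pair did not enter the comparison. The rule that chose the 12 and 12 genes of largest change already set the direction between the lowest and highest class. The counts of their steps are therefore a description and not further support. The share of all genes tested with such courses was not counted. Of the 12 genes of largest increase, 8 rose at each step in at least 4 mice, and the range was 2 mice (Osm and Irf1) to 6. Of the 12 genes of largest decrease, 3 fell at each step in at least 4 mice, and the range was 0 mice (Gzmb) to 5. Klf2 stood at medians of 28.9, 102, 372 and 987 CPM from the lowest to the highest class, here without TMM normalization, and rose at each step in 5 of 6 mice. Nr4a1 stood at 652, 1275, 2437 and 3343 and Tnfaip3 at 390.1, 602, 1280.2 and 2472, and both rose at each step in 6 of 6 mice, as did Egr2, Rgs2 and Klf4. Il13 stood at 172, 257, 548 and 580.5 and rose at each step in 2 mice. Nrip3 fell at each step in 5 mice, Arl4c and Flrt3 in 3, Pdgfa and Loxl2 in 2 and Itpripl2 and Amz2 in 1. Gzmb stood at 166, 119.7, 182 and 32.6. Cpa3 stood at 13266, 12011, 13805 and 17008, was highest in the top class in 5 of 6 mice and rose at each step in 2. Adjacent classes were not tested against each other.

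**Figure D5:**
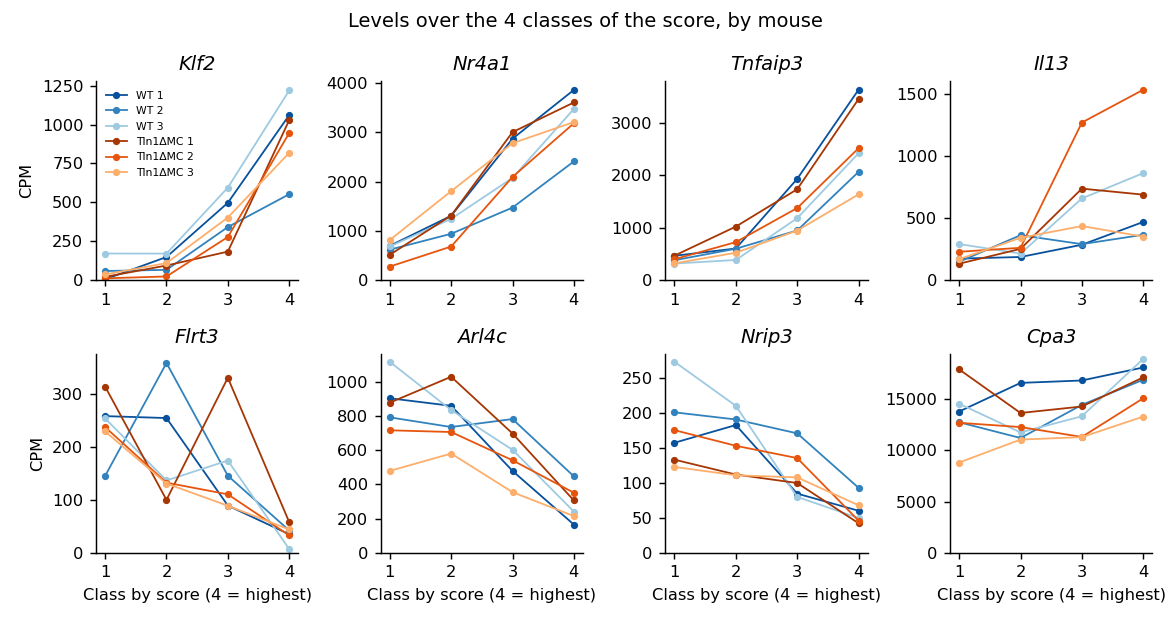
CPM in the 4 classes of cells by score, from lowest (1) to highest (4), with a line for each mouse. Klf2, Nr4a1 and Tnfaip3 are highest in class 4, Il13 rises at each step in only 2 mice, Flrt3, Arl4c and Nrip3 are lowest there, and Cpa3 is highest in class 4 in 5 of 6 mice.

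The difference between high and low cells was then compared between WT and Tln1ΔMC mice. None of the 3907 genes was called (0% of those tested) for a class by genotype term (limma, smallest adjusted p = 0.955). For this term 175 genes had an unadjusted p under 0.05, no more than tests without any difference would give. The median standard error of this term was 0.44, so that a difference of this size lay within the error of 3 mice against 3. The 234 genes called higher had a median log2 difference of 0.87 for WT and 0.96 for Tln1ΔMC animals, and the 174 called lower had −0.81 and −0.76. Osm rose by 1.01 more in Tln1ΔMC than in WT mice (standard error 0.36) and Klf2 by 0.93 more (standard error 0.76), and Loxl2 differed by 1.55 (standard error 0.41), all with an adjusted p = 0.955 from limma.

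Promoters of the called genes were searched on both strands for these and 3 more motifs, using RefSeq sequences that existed for 184 higher, 130 lower and 3017 tested genes. The TATA box was found in 19.6% of the higher, 6.92% of the lower and 8.42% of the tested genes, against 17.8% of all promoters. The motif bound by NF-kB was found in 15.2%, 6.92% and 10.4%, against 8.18% of all, and the CRE TGACGTCA in 3.80%, 0.769% and 3.22%. The CRE core, which the full CRE contains, was found in 39.1%, 26.2% and 35.7%. The AP-1 site TGANTCA was found in 2.72%, 8.46% and 4.67%, the EGR site GCGNGGGCG in 13.04%, 13.8% and 12.03% and the CArG box in 1.09%, 2.31% and 1.56%. In the longest 3′ UTR of a gene, the AU-rich nonamer TTATTTATT was found in 27 of 225 higher genes, in 16 of 164 lower genes (9.76%) and in 311 of 3720 tested genes (8.36%), and in Fos, Dusp1 and Zfp36 among the score genes. These shares are descriptions without a test.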

How the data were processed

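scRNA-seq tables of 30 MC libraries from 6 mice were used, the number after the genotype in the labels being taken as the mouse. Cells were sorted with doublets excluded and sequenced by mCEL-Seq2, in which each molecule carries a UMI of 6 bases. The authors aligned reads with BWA 0.6.2-r126 after bcl2fastq 2.17.1.14 (mm10 in the submitters' processing notes, ENCODE VM9 gene models), discarded reads with several places, merged overlapping loci and converted UMIs into transcripts with a binomial correction. The deposited values are the resulting transcript counts, not scaled for depth, and each went back to a whole number of the 4096 possible UMIs (largest deviation 4.09e-12). Reads were mapped in the sense direction, and no doublet caller was run.

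Cells with more than 1000 transcripts outside Gm genes were kept, split by score within the library and summed per mouse and class, so that library and batch do not differ between the classes. Mice, not cells, are the replicates. Both sums of a number come from the same animal, and their deviations from the class means correlated at 0.199 to 0.511 in the 6 mice, so the mouse was a block. Genes with at least 10 transcripts in 6 of 12 sums entered the fit of log2(CPM + 1), where CPM is transcripts per 1000000 after TMM normalization by code written here, using R 4.3.3 and the trend option of limma 3.58.1. This test, checked on simulated data, took the place of the planned quasi-likelihood test on counts, which was not run here. Calls are at a Benjamini-Hochberg adjusted p under 0.05, and single values used exact permutation over mice. None of the 2196 cells was a copy of another. Named genes are the score genes, the 12 largest changes of each direction among called genes with the same sign in 6 mice and at least 20 CPM, members of the gene lists and markers of other cell types. The members and lists were chosen with earlier results of these data known, and the TATA box, the CRE core and the AU-rich nonamer were added after the data were seen. Alternatives were tried for cells, score, classes, filters, normalization and single mice. Python 3.11 was used for the sums. Positions are from GENCODE M21 for GRCm38, and the 4 Myh11-GFP libraries entered no test, their values being given only beside those of MCs. Values of the sorted cells depend on depth, since genes of few transcripts carry more counting error.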

Additional observations from a re-analysis of the deposited data

Results flagged for a closer look

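The paired differences of the 24 genes named for the largest changes and the ratio of transcripts per cell were searched for a mouse far from the other 5, and 3 of 25 groups had one, where chance gives about 1 in 20. Rgs2 was highest in WT mouse 1, at a log2 difference of 3.63. Flrt3 was lowest in WT mouse 3, at −4.96, where the high cells held 1 transcript. Itpripl2 was lowest in Tln1ΔMC mouse 2, at −2.41. Each of these genes moved the same way in all 6 mice.

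Data outside the comparison also held score transcripts: the 307 Myh11-GFP cells, sorted for a smooth muscle reporter, had a score of 76.7 per 10000 transcripts, with 61.5 to 87.8 in the 4 libraries, against 95.2 to 147 in the MCs of the 6 mice.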

How the results depend on the processing

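With no replicate block, which ignores the pairing within the mouse, 140 genes were higher and 64 lower. Without a filter on low genes the counts were 103 and 29, with at least 30 transcripts 150 higher, with cells thinned to 1000 UMIs 93 and 68, with classes of 1 in 10 cells 135 and 84, and with voom weights, added after seeing the data, 283 lower. These settings test other numbers of genes or use fewer cells, and for the block and the weights the cause was not tested. Leaving out a mouse gave 166 to 205 higher and 99 to 161 lower genes, the fewest lower ones without Tln1ΔMC mouse 2, and 115 without Tln1ΔMC mouse 1. For the class by genotype term, leaving out a mouse gave 0 to 3 genes: Col1a1, Col1a2 and Sparc without WT mouse 3 and Hspa1a, Nr4a2 and S100a4 without Tln1ΔMC mouse 3, and voom weights gave 3, again Col1a1, Col1a2 and Sparc. The score difference of the genotypes was −3.73 by medians of cells and −1.35 to 19.3 when a mouse was left out, and the log2 ratio of transcripts per cell 0.12 to 0.30. Sparc went to 0.18 without cells with other markers. The median of the IgE receptor list went from 0.12 to −0.0278, −0.0565, −0.0208, −0.0348 and −0.152 with at least 30 transcripts, without cells with other markers, with thinned cells, with the score of 4 genes and with classes of 1 in 10 cells. In the 12 and 12 genes of largest change, 590 of 606 values kept direction and call, and 16 lost the call in the same direction (Tmem120a 8, Gzmb 3, Slc7a1 2, Pdgfa, Loxl2 and Raph1 1 each). The Kcnq1ot1 filter removed 0 cells. The planned count-based tests were not run, and limma was used in their place. On whole UMIs limma called 238 genes higher and 175 lower. Depth limits the lowest genes, with as few as 1 transcript in a sum of Klf2, Egr2, Irf1 and Sox7.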
